A study of Rattus norvegicus with 12 samples.

Results

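Membrane mucins and surface tetraspanins are membrane proteins of the outermost cells of the ocular surface, and they are described here in rat cornea across 4 groups of libraries. The 7 genes, Muc1, Muc4, Muc15, Muc16, Muc20, Tspan1 and Tspan8, were found by gene symbol in a table of 30452 genes, and they had been named with earlier results of these data in view. A row carries the symbol of 5 of them. Muc4 and Muc16 are not analysed here. Of the 5, 3 passed the filter on low values and could be tested (Muc20, Tspan1 and Tspan8), while Muc1 and Muc15 had 2 reads each over all libraries.

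Membrane mucins span the plasma membrane and carry long extracellular stretches with many O-linked sugar chains, which together form much of the glycocalyx, the coat between the epithelium and the tear film. On the corneal surface they hold water, lower friction and keep cells and microbes from sticking, and MUC1, MUC4 and MUC16 are those best known from human corneal and conjunctival epithelium. Tetraspanins cross the membrane 4 times and arrange integrins, adhesion molecules and receptors into patches of the membrane.

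RNA sequencing was done on 12 libraries of whole cornea, 3 in each group. Corneas of the SF/HA-HEP-PAM group and of the SF/HA group are named for a patch, a detachable device based on silk, those of the Alkali-burned group for the injury, and the remaining group is Control. The labels give neither the meaning of SF, HA, HEP and PAM nor a strain, age or time of sampling, and whether the patch groups had also been burned is not stated. Whether replicates are separate animals is not stated either, so the errors describe the spread among these libraries, which may be technical.

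The number of reads on genes was 1245606 to 2117399 in SF/HA-HEP-PAM, 499061 to 957696 in SF/HA, 1173159 to 1265298 in Alkali-burned and 486264 to 1015788 in Control libraries. Markers of corneal epithelium (9 genes, Krt12 and Krt5 among them) took 3.90% to 4.25%, 2.88% to 3.91%, 2.23% to 3.46% and 3.85% to 6.88% of reads in the same groups. Markers of conjunctiva and goblet cells (7 genes, the goblet peptide Tff1 at 0 in all libraries) took at most 0.205% in any library. In 4 libraries other tissue markers stood apart from those of their group. These were SF/HA-HEP-PAM replicate 3, SF/HA replicate 2 and Alkali-burned replicate 1, which had the most leukocyte marker reads of their groups, and Control replicate 1, which had the most stromal reads.

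Group means of Muc20, Tspan1 and Tspan8 came in the same order, lowest in SF/HA-HEP-PAM, then SF/HA and Control, and highest in Alkali-burned. The bases before their transcription starts are shown to compare the promoters of genes that share this order. The 250 bases before each start are from RefSeq, build GRCr8, written 5′ to 3′ in the direction of the gene, with the E-box CACCTG in capitals where it was read on this strand or its complement. The table held such a window for 5 of the 7 genes, Muc1, Muc4, Muc20, Tspan1 and Tspan8.
Muc20 (chr11:81492641-81492890, plus strand): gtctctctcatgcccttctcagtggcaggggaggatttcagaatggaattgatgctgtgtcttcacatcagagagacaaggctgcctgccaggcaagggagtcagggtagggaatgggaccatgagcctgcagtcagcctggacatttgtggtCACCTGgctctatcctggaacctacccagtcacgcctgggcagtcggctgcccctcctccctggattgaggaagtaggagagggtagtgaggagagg
Tspan1 (chr5:134888731-134888980, minus strand): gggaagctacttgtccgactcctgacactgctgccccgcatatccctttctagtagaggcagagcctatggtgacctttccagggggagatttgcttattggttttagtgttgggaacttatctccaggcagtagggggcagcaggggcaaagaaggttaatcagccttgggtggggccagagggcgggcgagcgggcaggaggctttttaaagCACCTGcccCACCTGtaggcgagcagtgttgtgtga
Tspan8 (chr7:53330937-53331186, plus strand): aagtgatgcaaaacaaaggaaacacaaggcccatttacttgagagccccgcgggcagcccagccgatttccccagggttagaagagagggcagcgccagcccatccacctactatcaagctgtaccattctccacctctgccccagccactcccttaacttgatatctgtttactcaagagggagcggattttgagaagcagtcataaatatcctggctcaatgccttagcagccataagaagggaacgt

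The Muc20 window held CACCTG once, beginning 97 bases before the start, and the Tspan1 window held it at 36 and 27 bases before the start. These letters were not in the Tspan8 or Muc4 windows, and the Muc1 window, of a gene with 2 reads in all, held them 2 times. Among 33469 windows of the same length over all genes, 15.9% held CACCTG on either strand. The AP-1 letters TGANTCA, found in 6.34% of windows, were in none of the 3. The ETS core AGGAAG, found in 29.5% of windows, was in that of Muc20, and the GC box GGGCGG, found in 30.5%, in those of Tspan1 and Muc1. No letters of this search were in all 3 windows, and a match here is a description of sequence and not of a bound site. GC content was 57.2% for Muc20, 56.4% for Tspan1 and 51.2% for Tspan8, beside a median of 51.2% over all windows.

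Of Muc1, Muc15 and Muc20, the membrane mucins named above that have a row, Muc20 is the one with measurable reads. It is known in human cells to bind the hepatocyte growth factor receptor MET. Its row (ENSRNOG00000001776) lies on chromosome 11 from 67987800 to 68001495, plus strand, of the submitters' build mRatBN7.2, overlaps no other gene of the table and held 6187 reads in all. FPKM, the authors' unit of reads scaled for gene length and library depth, was computed over the genomic span with introns, so levels of long genes are low for their reads. Muc20 had 6.07, 6.79 and 8.91 FPKM in SF/HA-HEP-PAM, 12.1, 6.29 and 25.2 FPKM in SF/HA, 61.9, 86.8 and 84.7 FPKM in Alkali-burned and 32.0, 41.5 and 43.6 FPKM in Control libraries. Every Alkali-burned library was above every Control library, and every Control library was above every library of both patch groups. SF/HA replicate 2, at 43 reads, lay inside the range of SF/HA-HEP-PAM. In a bulk sample, fewer cells of a type and less RNA per cell cannot be told apart.

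Group means of Muc20 were 7.26 ± 1.48 FPKM in SF/HA-HEP-PAM, 14.5 ± 9.66 in SF/HA, 77.8 ± 13.8 in Alkali-burned and 39.0 ± 6.21 in Control (SD, n = 3 each). The spread was widest in SF/HA, where the highest library had 4.00 times the lowest, against 1.47 times in SF/HA-HEP-PAM, 1.40 times in Alkali-burned and 1.36 times in Control. SF/HA replicate 3 was the high library there, and it was also the highest SF/HA library for Tspan1 and Tspan8.

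Tspan1 is a tetraspanin known from the epithelia of several organs. Its row (ENSRNOG00000023320) lies on chromosome 5 from 129646993 to 129652017, minus strand, with no overlapping gene, and held 5434 reads. Tspan1 had 16.4, 20.4 and 24.3 FPKM in SF/HA-HEP-PAM, 33.1, 24.3 and 64.4 FPKM in SF/HA, 141, 228 and 218 FPKM in Alkali-burned and 49.5, 81.3 and 71.7 FPKM in Control libraries. The Alkali-burned libraries were all above the rest. Only SF/HA replicate 3, at 64.4 FPKM, reached into the Control range among the patch libraries. Group means were 20.4 ± 3.94 FPKM in SF/HA-HEP-PAM, 40.6 ± 21.1 in SF/HA, 195.8 ± 47.5 in Alkali-burned and 67.5 ± 16.3 in Control (SD, n = 3 each).

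Tspan8, a tetraspanin known from epithelia of the gut and from their tumours, was the lowest of the 3. Its row (ENSRNOG00000004411) lies on chromosome 7 from 51445074 to 51479356, plus strand, spans a U7 snRNA gene listed at 0, and held 737 reads. Tspan8 had 0.204, 0.317 and 0.609 FPKM in SF/HA-HEP-PAM, 0.655, 0.701 and 1.68 FPKM in SF/HA, 1.84, 4.80 and 4.43 FPKM in Alkali-burned and 1.44, 1.81 and 1.44 FPKM in Control libraries. The lowest value rests on 10 reads, with an exact 95% Poisson interval of 0.0977 to 0.375 FPKM that covers counting error only. Alkali-burned replicate 1, at 1.84 FPKM, was close to Control replicate 2 at 1.81 FPKM, and their counting intervals, 1.45 to 2.31 and 1.36 to 2.36, overlapped. Group means were 0.377 ± 0.209 FPKM in SF/HA-HEP-PAM, 1.01 ± 0.576 in SF/HA, 3.69 ± 1.61 in Alkali-burned and 1.56 ± 0.215 in Control (SD, n = 3 each).

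**Figure D1:**
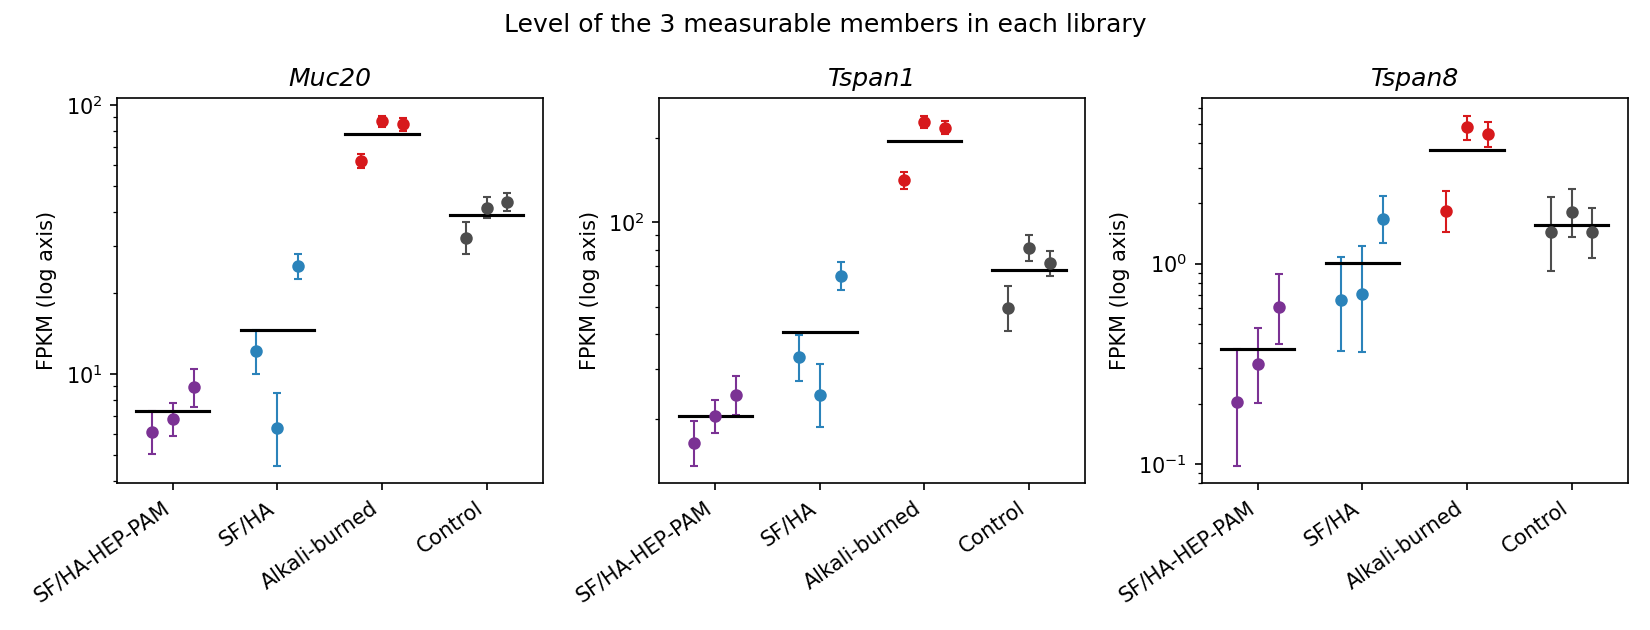
FPKM of Muc20, Tspan1 and Tspan8 in each library (log axis; points are libraries with 95% Poisson counting intervals, short lines are group means, n = 3 each). The Alkali-burned libraries are the highest in each panel, from 61.9 FPKM for Muc20, 141 for Tspan1 and 1.84 for Tspan8, and the SF/HA-HEP-PAM libraries are the lowest or among the lowest.

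The replicates of a group were ranked alike by the 3 genes in several places. In SF/HA-HEP-PAM replicate 3 was the highest and replicate 1 the lowest for all 3 genes. In Alkali-burned replicate 2 was the highest and replicate 1 the lowest for all 3. SF/HA-HEP-PAM replicate 3 and Alkali-burned replicate 1 are also the libraries with the most leukocyte marker reads of their groups, 2.03% against 0.253% and 0.365%, and 0.717% against 0.191% and 0.209%. Their member levels were thus at opposite ends of their groups. SF/HA replicate 2, with 1.80% against 0.208% and 0.331%, was the lowest of its group for Muc20 and Tspan1 but not for Tspan8. The part of leukocyte RNA in these levels was not tested.

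Muc1 and Muc15 were at the limit of detection. Muc1 (ENSRNOG00000020539, chromosome 2 from 174635995 to 174640733, plus strand), the membrane mucin found on most simple epithelia, had 1 read in SF/HA-HEP-PAM replicate 3 (0.169 FPKM) and 1 in SF/HA replicate 3 (0.220 FPKM). Muc15 (ENSRNOG00000004703, chromosome 3 from 97294783 to 97307090, plus strand), a membrane mucin known from the milk fat globule, had 1 read in SF/HA-HEP-PAM replicate 3 (0.0652 FPKM) and 1 in SF/HA replicate 2 (0.163 FPKM). Its row overlaps Ano3 on the other strand, which had 0 reads. In every other library both were listed at 0, and a count of 0 allows at most 0.299 FPKM of Muc1 where depth was greatest and at most 1.30 FPKM where it was least (3 reads, counting error only). For Muc15 the same limits were 0.115 and 0.501 FPKM. A listing at 0 in this table is not evidence that the RNA is missing: the broadly expressed tetraspanin Cd81 was listed at 0 in all 12 libraries and the elongation factor Eef1a1 had 1 read in all, while Actb had 73082 reads. Cd81, Eef1a1 and Actb were chosen after their values were seen.

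Differences were fitted for all genes that passed the filter, with limma on log2(FPKM + 1). The rule for a call was an adjusted p below 0.05 (Benjamini-Hochberg, over the 6112 tested genes) together with a log2 difference beyond 1 in either direction. The 7 genes had been chosen from such results, so their differences and calls are given as a description, with no p-value for a gene. Comparisons that share the Alkali-burned or the Control libraries are not independent of each other. Whether the libraries of compared groups overlap is likewise a description. The share of all tested genes whose groups do not overlap was not counted.

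After the burn the 3 genes were above Control. Alkali-burned exceeded Control by a log2 difference of 1.52 for Tspan1 (SE 0.34), 0.97 for Muc20 (SE 0.38) and 0.81 for Tspan8 (SE 0.28), with no overlap between the groups for any of them. As ratios of mean FPKM these were 2.90, 1.99 and 2.36. The lowest Alkali-burned library had 1.74 times the highest Control library for Tspan1, 1.42 times for Muc20 and 1.02 times for Tspan8. Tspan1 was called, 1 of the 3, where 4.42% of all tested genes were called higher and 1.28% lower. Its call was lost without Alkali-burned replicate 2, Alkali-burned replicate 3 or Control replicate 3, with log2 differences of 1.32 to 1.74 over all fits that leave out 1 library, and it was lost without the filter on low values. Tspan8 was called without Alkali-burned replicate 1 (log2 1.13).

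SF/HA-HEP-PAM against Alkali-burned gave the widest separation. Muc20 was lower by a log2 difference of -3.25 (SE 0.38), Tspan1 by -3.19 (SE 0.34) and Tspan8 by -1.71 (SE 0.28), and the groups did not overlap. The lowest Alkali-burned library had 6.94 times the highest SF/HA-HEP-PAM library for Muc20, 5.82 times for Tspan1 and 3.02 times for Tspan8. Mean FPKM was 10.7 times lower for Muc20, 9.62 times lower for Tspan1 and 9.80 times lower for Tspan8. All 3 were called, where 3.71% of tested genes were called lower and 7.38% higher, and they ranked 4, 6 and 74 by size among the 227 genes called lower. The rank of Tspan8 depends on the pseudocount, since its FPKM lay near 1: with 5 in place of 1 its log2 difference was -0.68 and it was not called, with 0.5 it was -2.19, and in a fit on the recovered reads it was -3.32.

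SF/HA against Alkali-burned went the same way with smaller differences. They were -2.52 for Muc20 (SE 0.38), -2.33 for Tspan1 (SE 0.34) and -1.19 for Tspan8 (SE 0.28), again with no overlap. Mean FPKM was 5.36, 4.82 and 3.65 times lower. All 3 were called, where 2.06% of tested genes were called lower, at ranks 7, 11 and 103 of 126. Muc20 and Tspan1 were called in each of the 12 fits that leave out 1 library. Tspan8 was called only without SF/HA replicate 3 or Alkali-burned replicate 1, and its log2 difference ran between -1.52 and -1.003. That call was also lost with a pseudocount of 0.5 (log2 -1.45) or 5 (-0.52), without the filter on low values (-1.19), after quantile normalization (-1.11) and after median-of-ratios scaling (-1.18). With only the compared libraries in the fit all 3 calls were lost.

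**Figure D2:**
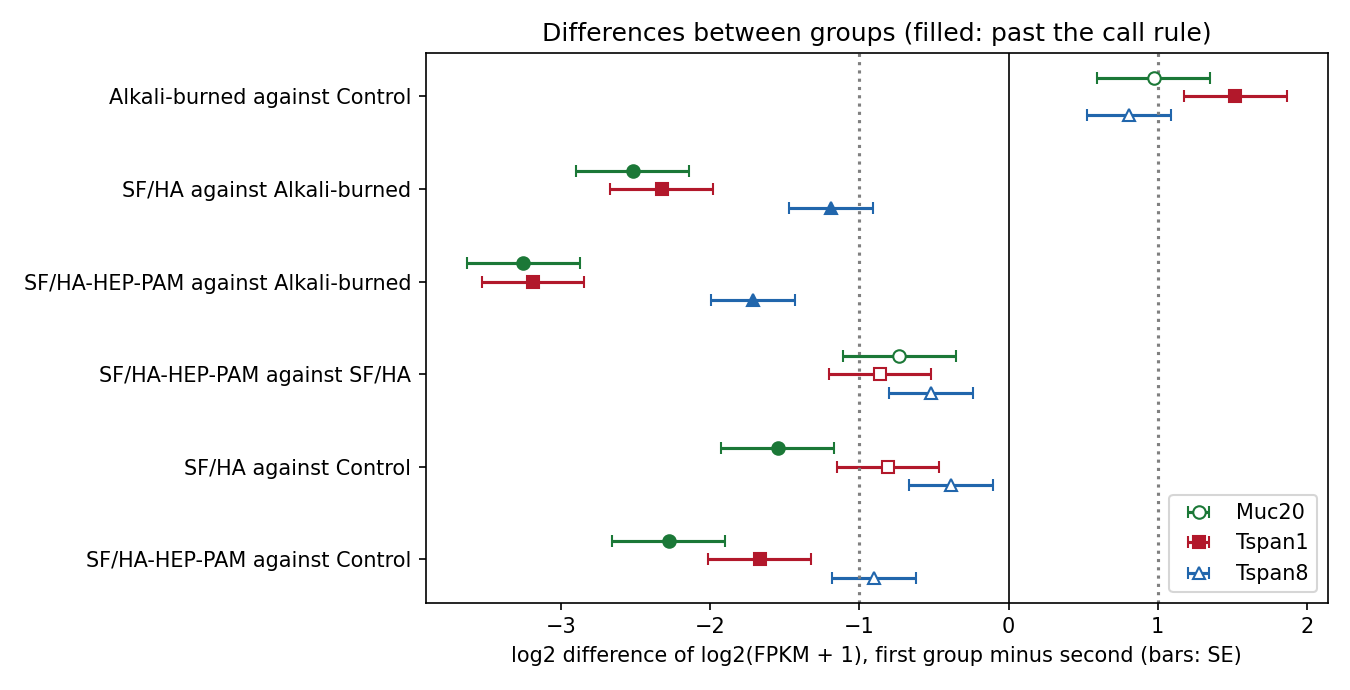
Log2 differences of log2(FPKM + 1) for Muc20, Tspan1 and Tspan8 in the 6 comparisons, the group named first minus the other (points, bars are SE, filled where past the call rule). SF/HA-HEP-PAM against Alkali-burned lies farthest from 0, at -3.25, -3.19 and -1.71, and Alkali-burned against Control is the comparison above 0.

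The patch groups were also set against each other. SF/HA-HEP-PAM minus SF/HA was -0.73 for Muc20 (SE 0.38), -0.86 for Tspan1 (SE 0.34) and -0.52 for Tspan8 (SE 0.28). Libraries overlapped for Muc20. For Tspan1 the highest SF/HA-HEP-PAM library, 24.28 FPKM, was just under the lowest SF/HA library, 24.32 FPKM. With limma 0 of the 3 were called, where 0.524% of tested genes were called lower, 1 of the 3 had an unadjusted p below 0.05, as had 25.2% of all tested genes, and voom on the recovered reads also called 0. Without SF/HA replicate 2 Muc20 was called, at a log2 difference of -1.18.

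Against Control both patch groups had less Muc20. SF/HA-HEP-PAM minus Control was -2.28 for Muc20 (SE 0.38), -1.67 for Tspan1 (SE 0.34) and -0.90 for Tspan8 (SE 0.28), with no overlap for any, and Muc20 and Tspan1 were called where 2.39% of tested genes were called lower. SF/HA minus Control was -1.55 for Muc20 (SE 0.38), -0.81 for Tspan1 (SE 0.34) and -0.38 for Tspan8 (SE 0.28). Muc20 alone was called, where 1.37% of tested genes were called lower and 3.19% higher, and its groups did not overlap. That call was lost in 8 of the 12 fits without 1 library (SF/HA-HEP-PAM 1 and 2, SF/HA 1 and 2, Alkali-burned 2 and 3, Control 2 and 3), with log2 differences of -2.02 to -1.10. It was also lost without the filter on low values and with only the compared libraries. Libraries overlapped for Tspan1 and Tspan8. Tspan8 was called lower in SF/HA-HEP-PAM than in Control in a fit on the recovered reads (log2 -2.21), a value that is larger than that on the FPKM scale. It was called in 4 of 22 alternatives. The others were a pseudocount of 0.5, quantile normalization and leaving out the 4 libraries that stood apart. Whether it is called thus depends on the pseudocount here too.

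Without the 4 libraries whose tissue markers stood apart, an alternative added after the data were seen, Muc20, Tspan1 and Tspan8 kept the direction of each difference. SF/HA-HEP-PAM minus Alkali-burned was then -3.55, -3.54 and -2.16, and SF/HA minus Alkali-burned was -2.23, -2.25 and -1.42 in that order of genes, all called. Alkali-burned minus Control was 0.99, 1.53 and 1.10, with Tspan1 and Tspan8 called. SF/HA-HEP-PAM minus SF/HA was -1.32, -1.29 and -0.74, with 0 called. SF/HA-HEP-PAM minus Control was -2.55, -2.00 and -1.06, all called, and SF/HA minus Control was -1.23, -0.71 and -0.31, with Muc20 called. In this fit 4.085% of all tested genes were called lower in SF/HA-HEP-PAM and 2.51% in SF/HA against Alkali-burned. The share called lower was 0.795% in SF/HA-HEP-PAM against SF/HA, 2.55% in SF/HA-HEP-PAM against Control and 1.95% in SF/HA against Control. In Alkali-burned against Control 5.44% were called higher. The members' calls are a description here too.

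The reads of Tspan1 and Muc20 can be compared within a library, which leaves out depth. There were 0.992, 1.10 and 1 Tspan1 reads per Muc20 read in SF/HA-HEP-PAM, 1, 1.42 and 0.939 in SF/HA, 0.838, 0.965 and 0.943 in Alkali-burned and 0.568, 0.718 and 0.603 in Control libraries. The 3 Control libraries were below the other 9. Group means were 1.03 ± 0.0615, 1.12 ± 0.261, 0.915 ± 0.0677 and 0.630 ± 0.0786 in that order (SD, n = 3 each). Per base of genomic span with introns Tspan1 was the higher gene throughout, at 2.81 ± 0.166 times the FPKM of Muc20 in SF/HA-HEP-PAM, 3.05 ± 0.712 in SF/HA, 2.49 ± 0.185 in Alkali-burned and 1.72 ± 0.215 in Control. The span is 13696 bases for Muc20 and 5025 for Tspan1, so the size of this ratio depends on the lengths used. Muc20 had 8.77 ± 3.03 reads per Tspan8 read in SF/HA-HEP-PAM, 5.66 ± 1.93 in SF/HA, 9.43 ± 3.47 in Alkali-burned and 10.1 ± 1.81 in Control. The SF/HA libraries, at 3.58 to 7.40, were all below the Control libraries, at 8.88 to 12.1, and the ranges of the other groups overlapped with each other and with both.

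Reads were also counted per 1000 reads of the 9 corneal epithelium markers, a ratio chosen after the data were seen. Muc20 had 1.96, 2.19 and 3.13 in SF/HA-HEP-PAM, 4.26, 2.77 and 11.96 in SF/HA, 38.0, 34.4 and 35.1 in Alkali-burned and 11.4, 8.26 and 8.90 in Control libraries. Tspan1 had 1.95, 2.41 and 3.13 in SF/HA-HEP-PAM, 4.26, 3.93 and 11.2 in SF/HA, 31.9, 33.1 and 33.1 in Alkali-burned and 6.47, 5.94 and 5.37 in Control libraries. On this scale the Alkali-burned libraries lay closer together than on the FPKM scale and stayed the highest. The order of SF/HA and Control changed for Tspan1, with means of 6.47 and 5.92, and not for Muc20, with 6.33 and 9.52. SF/HA replicate 3 was above every Control library for both genes, and SF/HA replicates 1 and 2 were below every Control library. Tspan8 averaged 0.319 ± 0.193 in SF/HA-HEP-PAM, 1.11 ± 0.768 in SF/HA, 4.06 ± 1.07 in Alkali-burned and 0.973 ± 0.282 in Control. Its SF/HA mean was thus also above that of Control here, with overlap of the libraries. Of the 8 tested markers 4 were themselves called lower in Alkali-burned than in Control (Slurp1, Tkt, Aldh3a1 and Pax6). There 1.28% of all tested genes were called lower, and only the Tkt call held in all 23 alternatives. In SF/HA against Control 4 markers were called lower and 1 higher, beside 1.37% and 3.19% of all. In SF/HA-HEP-PAM against Control 3 were called lower and 1 higher, beside 2.39% and 9.21% of all. This scale thus moves in the patch groups as well as with the injury, which bears on the order of SF/HA and Control. The part of a changed epithelium in the members' differences was not tested.

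**Figure D3:**
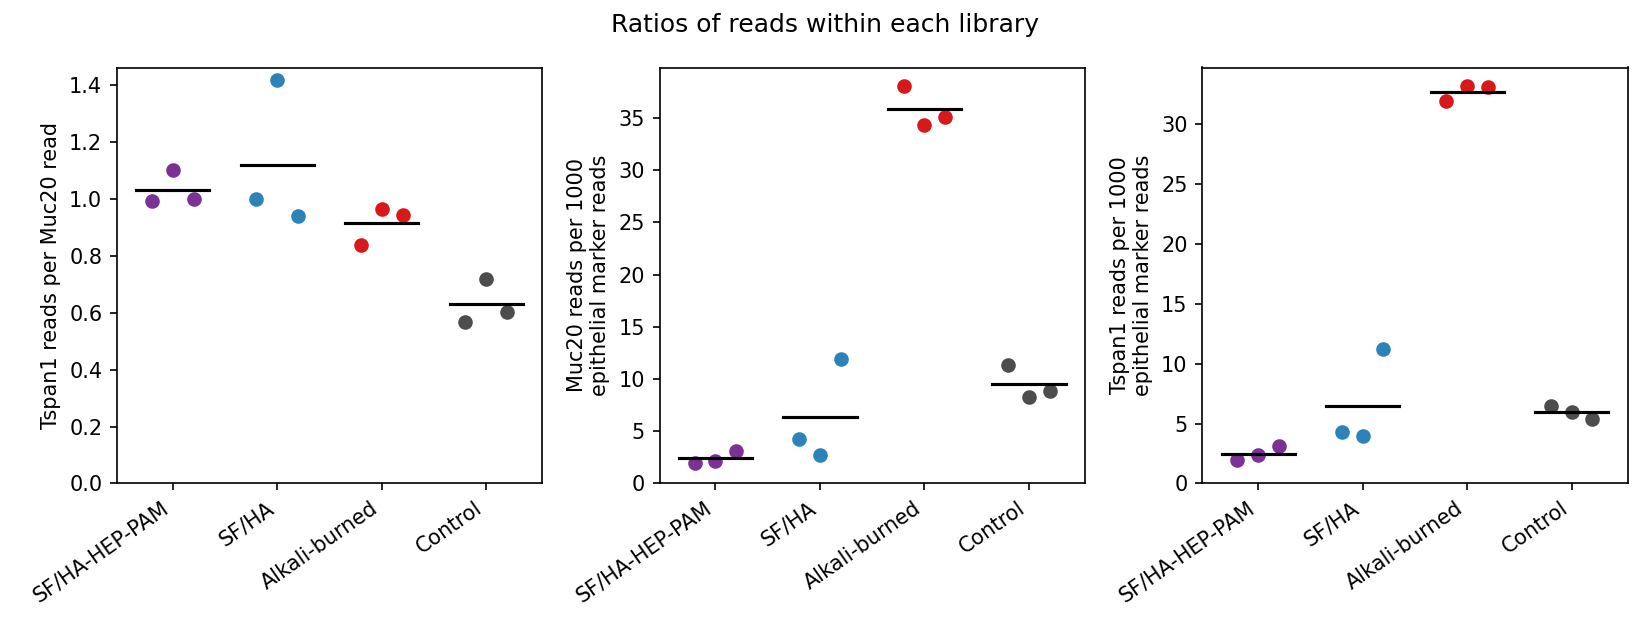
Ratios of reads within each library (points are libraries, short lines are group means, n = 3 each): Tspan1 reads per Muc20 read, and Muc20 and Tspan1 reads per 1000 reads of corneal epithelium markers. Control lies at 0.568 to 0.718 in the Tspan1 to Muc20 ratio, below all other libraries, and Alkali-burned lies highest for Muc20 on the marker scale, at 34.4 to 38.0.

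Other genes of both families were set beside these 3. Of 16 other membrane mucins, sialomucins and related genes 9 have a row and 1 was tested, Cd164, a small sialomucin of endosomes and the cell surface. Cd164 had 13.3 ± 1.82 FPKM in SF/HA-HEP-PAM, 9.25 ± 0.220 in SF/HA, 6.88 ± 0.398 in Alkali-burned and 9.61 ± 1.62 in Control (SD, n = 3 each). Its order was the reverse of that of the 3 genes at both ends, and with a log2 difference of 0.86 between SF/HA-HEP-PAM and Alkali-burned (adjusted p = 0.00272, limma) it was below the size needed for a call. Voom on the recovered reads also tested Parm1, another mucin-like membrane gene of the list, and called it higher in Alkali-burned (log2 1.47) and in SF/HA (log2 1.82) than in Control. Parm1, named after its values were seen, had 0.118 ± 0.0143 FPKM in SF/HA-HEP-PAM, 0.239 ± 0.0188 in SF/HA, 0.194 ± 0.0623 in Alkali-burned and 0.0799 ± 0.0461 in Control (SD, n = 3 each). Of 7 secreted mucins and mucin-like genes, 3 have a row and 0 passed the filter.

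Of 30 other tetraspanins 28 have a row and 10 were tested. With limma 0 of the 10 were called in SF/HA-HEP-PAM against Alkali-burned (4 at an unadjusted p below 0.05), in SF/HA against Alkali-burned (2), in SF/HA-HEP-PAM against SF/HA (3) and in SF/HA-HEP-PAM against Control (2). The shares of all tested genes at that unadjusted p were 35.7%, 16.6%, 25.2% and 35.2% in the same comparisons. Voom on the recovered reads, which tested 16, called 3 higher and 2 lower in SF/HA-HEP-PAM against Alkali-burned, where it called 15.9% of all genes higher and 6.06% lower, with log2 differences from -1.85 (Tspan7) to 2.60 (Tspan14), and 0, 4 and 3 in the other comparisons in that order. In these it called 2.75%, 9.35% and 17.8% of all genes, in both directions together. The median log2 difference of these 10 was -0.25 in SF/HA-HEP-PAM against Alkali-burned, beside 0.04 over all tested genes, and 0.19 in Alkali-burned against Control, beside 0.06. Cd9, the gene with the highest mean among these 10, had 60.1 ± 8.31 FPKM in SF/HA-HEP-PAM, 41.9 ± 3.76 in SF/HA, 38.7 ± 4.65 in Alkali-burned and 51.6 ± 18.4 in Control (SD, n = 3 each). Tspan4 was called higher in Alkali-burned than in Control (log2 1.11, SE 0.24, adjusted p = 0.0191) and in SF/HA than in Control (log2 1.09, SE 0.24, adjusted p = 0.0254), and in SF/HA-HEP-PAM its mean was 2.21 FPKM against 1.70 in Control. The first call was lost without Alkali-burned 1, Control 2 or Control 3 (log2 0.93 to 1.31) and the other without SF/HA 1 or 3 or Control 2 or 3 (log2 0.93 to 1.29). With a pseudocount of 5 both calls were lost (log2 0.55 and 0.53), as they were without the filter on low values and with only the compared libraries, and the first also after quantile normalization (log2 0.999). Cd151, a partner of laminin-binding integrins, had 39.3 ± 4.84 FPKM in SF/HA-HEP-PAM, 40.1 ± 11.4 in SF/HA, 61.3 ± 10.3 in Alkali-burned and 31.6 ± 6.49 in Control and was not called in any comparison. Tspan4, Tspan7, Tspan14 and Cd151 were chosen after their values were seen.

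**Figure D4:**
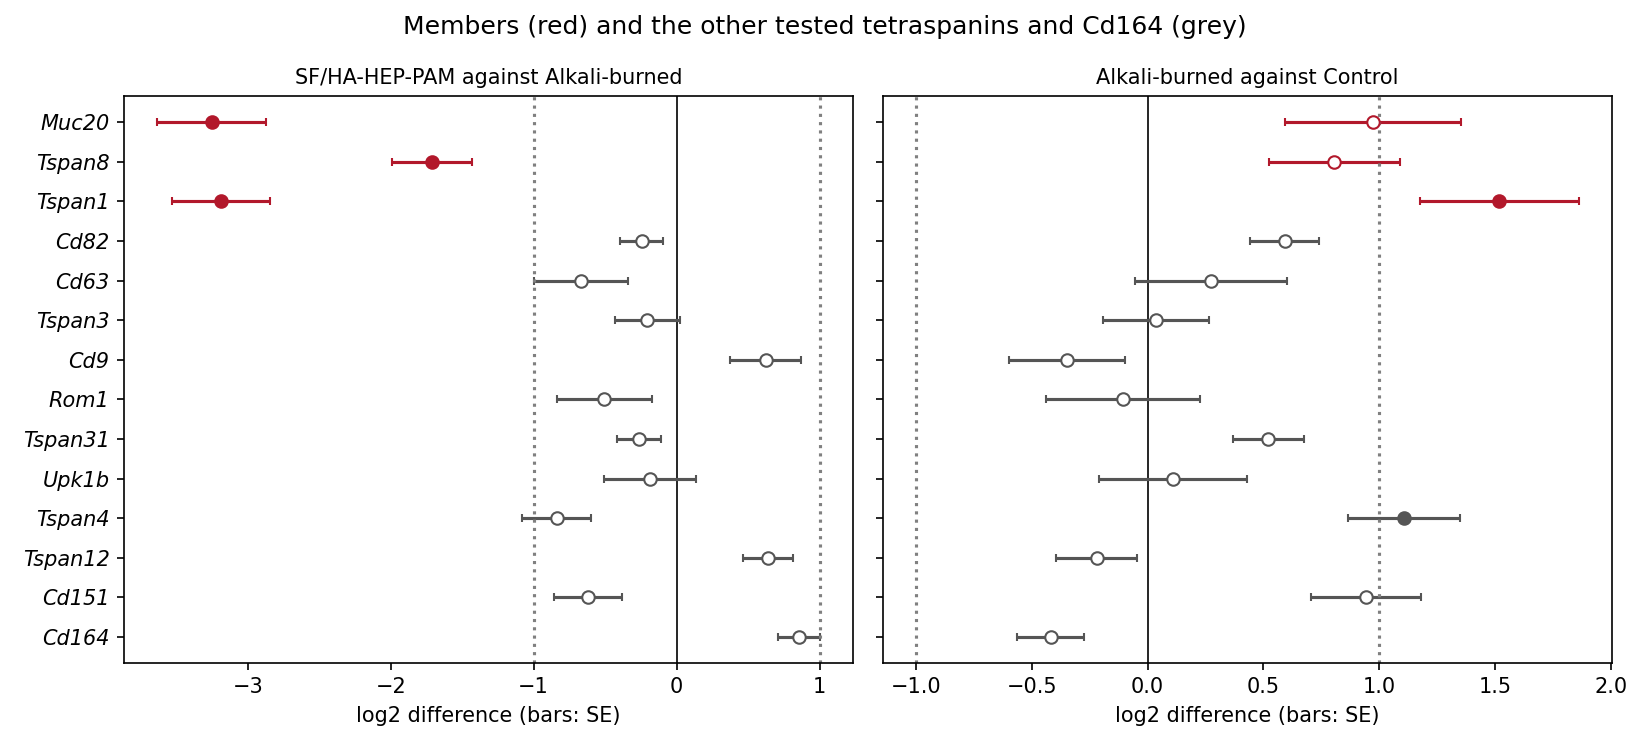
Log2 differences of the 3 genes (red), the 10 other tested tetraspanins and Cd164 (grey), with SE, filled where past the call rule, by comparison. In SF/HA-HEP-PAM against Alkali-burned the 3 genes lie at -3.25, -3.19 and -1.71, and no other tetraspanin is past the call rule of limma there.

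Enzymes that add and extend the O-linked sugars of mucins were mostly too low to test: 32 of 33 have a row and 4 passed the filter. Gcnt3, a branching enzyme known from mucin-secreting tissue, was called higher in Alkali-burned than in Control, with 3.07 ± 1.05 FPKM against 0.679 ± 0.139 (log2 1.25, SE 0.30, adjusted p = 0.0275, limma), and it was chosen after its values were seen. The call was lost without Alkali-burned 2 or 3 or Control 2 or 3 (log2 1.10 to 1.48), with a pseudocount of 5 (log2 0.50), without the filter and after quantile normalization (log2 1.10). Gcnt3 averaged 1.26 ± 1.005 FPKM in SF/HA-HEP-PAM and 1.58 ± 0.420 in SF/HA. C1galt1c1, the chaperone of the core enzyme and the highest of the 4 over all libraries, was not called in any comparison. Voom on the recovered reads tested 15 of these genes and called 1 higher and 3 lower in SF/HA-HEP-PAM against Alkali-burned. The called genes were Galnt3 (log2 1.47), and Gcnt3 (-1.56), St3gal4 (-1.32) and St3gal2 (-1.89), named after their values were seen. Over all genes voom called 15.9% higher and 6.06% lower in that comparison.

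Binding partners, membrane anchors and sheddases of mucins gave 12 tested genes of 22 with a row. In SF/HA-HEP-PAM against Alkali-burned 3 were called higher and 1 lower, where 7.38% of all tested genes were called higher and 3.71% lower. Voom called 8 of 20 higher and 1 lower, beside 15.9% and 6.06% of all genes. The 12 genes had a median log2 difference of 0.30 beside 0.04 over all genes. Ctnnb1, the catenin that can bind the tail of MUC1 in human cells, had 100.3 ± 18.6 FPKM against 18.4 ± 3.92 (log2 2.38, SE 0.39, adjusted p = 0.00221), and the adhesion protein Epcam had 15.8 ± 0.940 against 6.25 ± 0.371 (log2 1.21, SE 0.25, adjusted p = 0.00684). Ezr, the linker of membrane proteins to actin, chosen after its values were seen, was the other called higher (log2 1.03, SE 0.19, adjusted p = 0.00421), and that call was lost without SF/HA-HEP-PAM 3 or Alkali-burned 1 or 3 (log2 0.94 to 1.14). It was also lost with a pseudocount of 5 (log2 0.47), after quantile normalization (0.87) or median-of-ratios scaling (0.88), with library weights (0.96) and without the 4 libraries that stood apart (0.87). The Epcam call was lost with a pseudocount of 5 (log2 0.89). Plet1, a surface protein of epithelial progenitors, was called lower, with 105.3 ± 10.98 FPKM against 272.1 ± 111 (log2 -1.27, SE 0.31, adjusted p = 0.0168). It was also called lower in SF/HA against Alkali-burned (log2 -1.86, SE 0.31, adjusted p = 0.0103). The Plet1 calls were lost without SF/HA-HEP-PAM 1 or 3 or Alkali-burned 2 or 3 (log2 -1.67 to -1.03), and without SF/HA 2 or Alkali-burned 2 or 3 (log2 -2.26 to -1.62), the SF/HA call also with only the compared libraries.

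Adhesion partners of tetraspanins gave 8 tested genes of 11 with a row. In SF/HA-HEP-PAM against Alkali-burned limma called 3 higher and 0 lower, where 7.38% of all tested genes were called higher, and 6 had an unadjusted p below 0.05, as had 35.7% of all. Voom called 7 of 11 higher and 0 lower, beside 15.9% of all genes higher. The median log2 difference in the limma fit was 0.92 beside 0.04 over all genes. Cldn4, a tight junction protein, had 1050 ± 46.5 FPKM against 233.4 ± 18.3 (log2 2.17, SE 0.25, adjusted p = 0.00034), and Cldn1 had 13.8 ± 1.85 against 1.72 ± 0.585 (log2 2.46, SE 0.26, adjusted p = 0.000201). The third was the adherens junction protein Cdh1, chosen after its values were seen (log2 1.03, SE 0.18, adjusted p = 0.00287), whose call was lost without SF/HA-HEP-PAM 3 or Alkali-burned 1 (log2 0.94 to 1.11). The Cdh1 call was also lost with a pseudocount of 5 (log2 0.38), after quantile normalization (0.97) or median-of-ratios scaling (0.91), with library weights (0.95) and without the 4 libraries that stood apart (0.86). In the same comparison Muc20 and Tspan1 were at -3.25 and -3.19, so within the epithelial membrane genes listed here values lay on both sides.

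Epithelial transcription factors gave 12 tested genes of 17. In SF/HA-HEP-PAM against Alkali-burned limma called 7 higher and 0 lower, where 7.38% of all tested genes were called higher, and 9 had an unadjusted p below 0.05, as had 35.7% of all. Voom called 11 of 13 higher and 0 lower, beside 15.9% of all genes higher. The median log2 difference in the limma fit was 1.55 beside 0.04 over all genes. Grhl3, a factor of surface barrier formation, had 11.8 ± 1.92 FPKM against 1.02 ± 0.170 (log2 2.66, SE 0.20, adjusted p = 4.11e-05), and Klf4, a factor of epithelial differentiation, had 268 ± 18.0 against 85.1 ± 6.69 (log2 1.65, SE 0.17, adjusted p = 0.000169). These calls held in each fit that leaves out 1 library.

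Genes of the surface and differentiating layers gave 16 tested gene IDs of 20. They were called in both directions. In Alkali-burned against Control 4 were called higher and 2 lower, where 4.42% of all tested genes were called higher and 1.28% lower. In SF/HA-HEP-PAM against Alkali-burned 5 were called higher and 2 lower, where 7.38% of all were called higher and 3.71% lower. The median log2 difference there was 0.79, beside 0.04 over all tested genes. Ly6d and Krt17 were among those called higher there (log2 2.42 and 2.26), and kept these calls in all 23 alternatives. Crct1 and Cnfn, known from cornifying epithelium, were among those called higher after the burn, at 503 ± 72.8 FPKM in Alkali-burned against 26.1 ± 13.2 in Control (log2 4.32, SE 0.59, adjusted p = 0.00206) and 387 ± 86.0 against 21.5 ± 7.33 (log2 4.14, SE 0.52, adjusted p = 0.00134). Cnfn had 360 ± 298 FPKM in SF/HA-HEP-PAM, near its Alkali-burned level, where Muc20 had 7.26 ± 1.48 FPKM, below its Control level. Crct1 was called lower in SF/HA-HEP-PAM against Alkali-burned (log2 -2.07), and lost this call without SF/HA-HEP-PAM 1 or 2 or any 1 of the Alkali-burned libraries (log2 -2.72 to -1.69), and without the filter on low values.

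The genes most like each of the 3 were ranked over the 12 libraries by the root mean square difference of their log2(FPKM + 1) profiles, each after its own mean was subtracted, among 2068 genes with a symbol and a mean of at least 5 FPKM. For Muc20 these were the serine protease Prss22 (0.253), Mab21l4 (0.254) and Fxyd4, a regulator of the sodium pump (0.269), beside a median of 1.37 over all candidates. For Tspan1 they were Ppp1r11 (0.196), the serine protease Prss32 (0.206) and Mab21l4 (0.244), beside a median of 1.26. For Tspan8 they were the uridine phosphorylase Upp1 (0.216), Lratd1 (0.223) and the keratin Krt80 (0.239), beside a median of 0.765.

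Muc20 and Tspan1 were close to each other on this measure, at 0.315, with 4 of the 2068 candidates closer to Muc20 and 5 closer to Tspan1. Tspan8 was farther, at 0.59 from Tspan1 and 0.745 from Muc20, and its low FPKM makes its profile flat on this scale. Mab21l4, on the list of both, had 13.3 ± 3.07 FPKM in SF/HA-HEP-PAM, 23.7 ± 10.8 in SF/HA, 110 ± 27.6 in Alkali-burned and 53.5 ± 2.67 in Control (SD, n = 3 each). Ppp1r11 had 19.8 ± 1.72 FPKM in SF/HA-HEP-PAM, 29.0 ± 11.5 in SF/HA, 157 ± 31.9 in Alkali-burned and 56.8 ± 7.07 in Control. These genes had the same order of group means as the 3 genes, which the measure favours.

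**Figure D5:**
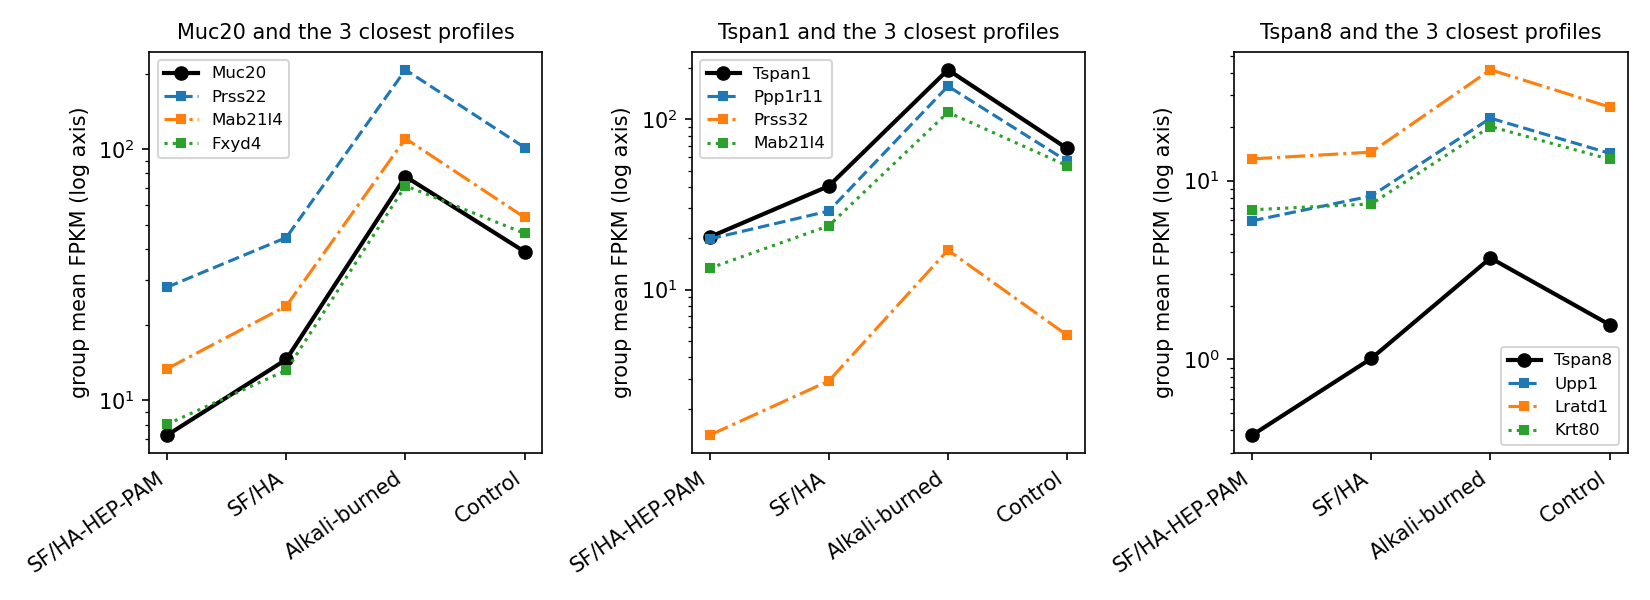
Group mean FPKM (log axis) of Muc20, Tspan1 and Tspan8 and of the 3 genes with the closest profile to each, by group. Each line is highest in Alkali-burned and lowest in SF/HA-HEP-PAM, as for Mab21l4 with 110 and 13.3 FPKM.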

How the data were processed

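RNA from 12 rat cornea libraries was reverse transcribed from poly(dT) primers with a sample barcode and a molecular identifier, per the labels' protocols. The deposited FPKM values are the authors' own, 1 column per library. The series text names fastp, HTSeq-count and DESeq2, and the submitters' processing notes name bcl2fastq, fastp, STAR, featureCounts and DESeq2 on build mRatBN7.2. The counting tool thus differs between sources, and the collapsing of duplicate molecules and the use of strand are not given in the sources used here. The deposited length equals the genomic span for all 30452 genes. Read counts were recovered from FPKM times length, all values being whole multiples of 1 step per library (largest relative deviation 2.16e-06). Another 108 lines name no gene and were left out. Poisson intervals and limits of 3 reads cover counting error only.

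Tests used R 4.3.3 and limma 3.58.1 on log2(FPKM + 1) with a variance trend, all 12 libraries and 4 group means. The filter kept 6112 genes that reached 1 FPKM in 3 or more libraries. A call needed a Benjamini-Hochberg adjusted p below 0.05 and a log2 difference beyond 1. The fit was checked on simulated data. Of 100 genes changed 3-fold 32 to 41 were called per comparison, and of 100 changed 6-fold 81 to 89. None of these calls had the wrong direction. A gene that is not called may therefore still differ between groups. Of the unchanged genes 5 to 11 were called per comparison. The simulation gave all genes the same spread beyond counting error and changed only genes above a minimum mean of reads. It does not cover genes with fewer reads or a wider spread. The 7 genes and all lists were chosen with earlier results of these data known, so no p-value is given for the 7. From each list the text names at most 4 called genes per comparison whose higher group mean was 5 FPKM or more, and the list's highest gene. Others are named as chosen after their values were seen. Promoter windows were searched on both strands for the letters of 8 motifs chosen after the data were seen. They were the E-box CACCTG, the AP-1 site TGANTCA, the ETS core AGGAAG, the GC box GGGCGG, the grainyhead site AACCNGTT, the TATA box TATAAA, the STAT site TTCNNNGAA and an NF-kB site. Alternatives were other pseudocounts, filters, scalings, library weights, a replicate block, voom on the recovered reads, the compared libraries alone and leaving out libraries. Leaving out the 4 libraries that stood apart was added after the data were seen. Figures used Python 3.11.15 and matplotlib 3.10.9.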

Additional observations from a re-analysis of the deposited data

How the results depend on the processing

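The 3 testable genes kept their direction in all 408 refits of their differences. Of these 367 gave the same call as the reported fit, 33 lost a call and 8 gained one. Counts called in the reported fits were 1 in Alkali-burned against Control, 3 in SF/HA and 3 in SF/HA-HEP-PAM against Alkali-burned, 0 in SF/HA-HEP-PAM against SF/HA, 1 in SF/HA against Control and 2 in SF/HA-HEP-PAM against Control. Over all tested genes these fits called 5.7%, 2.4%, 11.1%, 4.4%, 4.6% and 11.6% in the same order, in both directions together. Without the filter on low values the count was 0 in Alkali-burned against Control and 0 in SF/HA against Control, beside 1.1% and 0.92% of all genes. With only the compared libraries in the fit it was 0 in SF/HA against Alkali-burned and 0 in SF/HA against Control, beside 1.2% and 1.5%. Library weights gave 1 in SF/HA-HEP-PAM against SF/HA (Tspan1, log2 -1.04), where 0.88% of all genes were called lower. Leaving out the 4 libraries that stood apart gave 2 in Alkali-burned against Control, where 5.44% were called higher. The cause was not tested. With 1 library left out the counts ran from 0 to 2, 2 to 3, 3 to 3, 0 to 1, 0 to 1 and 2 to 2 in the 6 comparisons as listed above. Of all tested genes these fits called 3.74% to 6.99%, 1.23% to 3.03% and 8.11% to 11.8% in the first 3 comparisons. In the rest they called 1.5% to 5.31%, 3.24% to 6.06% and 8.82% to 12.2%.

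Deviations from the group means correlated at r from -0.093 to 0.155 between samples with the same replicate number, above 0.1 in 2 of 18 pairs, and 4 of 12 libraries correlated best with their own number in another group, so the numbers were not taken to pair samples. A replicate block gave counts of 1, 3, 3, 0, 1 and 2, as in the reported fits, and 312, 151, 668, 245, 256 and 702 called genes over the table, against 348, 149, 678, 267, 279 and 709. On the same genes log2(FPKM + 5) gave 188, 89, 336, 143, 139 and 345. No filter gave 217, 88, 561, 195, 174 and 596, voom 659, 238, 1903, 809, 421 and 1537, and the compared libraries alone 243, 71, 741, 181, 93 and 614. The share of calls that were higher was 66.5% in SF/HA-HEP-PAM against Alkali-burned, 55.1% after quantile normalization and 50.2% after median-of-ratios scaling. In SF/HA-HEP-PAM against Control it was 79.4%, 57.6% and 66.7%, and in SF/HA-HEP-PAM against SF/HA 88.0%, 70.8% and 64.7%. In Alkali-burned against Control it was 77.6%, and 63.3% after quantile normalization. Leaving out 1 library moved calls over the table to between 225 and 420, 74 and 183, 478 and 711, 88 and 319, 196 and 364, and 520 and 740. The count in SF/HA-HEP-PAM against SF/HA was 88, 162 and 89 without SF/HA-HEP-PAM 1, 2 and 3 and 150 without SF/HA 3. In SF/HA against Alkali-burned it was 75 without SF/HA 2 and 74 and 75 without Alkali-burned 2 and 3, and in Alkali-burned against Control 225 without Alkali-burned 3. At a filter of 5 FPKM Tspan8 is not tested, and its reported level rests on as few as 10 reads in a library.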

Other observations

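Among the other promoter windows the grainyhead letters AACCNGTT, found in 1.76% of all windows, and TATAAA, found in 12.9%, were in that of Muc1, and the STAT letters TTCNNNGAA, found in 7.67%, were in that of Muc4. None of these were in the windows of Muc20, Tspan1 or Tspan8, and the NF-kB site searched, found in 0.0956%, was in none of the 5.

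Markers of stroma (8 genes) took 1.23% to 2.15% of reads in SF/HA-HEP-PAM, 3.50% to 3.77% in SF/HA, 2.73% to 3.57% in Alkali-burned and 3.31% to 8.57% in Control libraries. The 8 leukocyte markers took 0.0520% to 0.0564% in Control libraries, below every library of the other groups. Markers of corneal endothelium (5 genes) took 0.0320% to 0.0414% in SF/HA-HEP-PAM, 0.0347% to 0.0469% in SF/HA, 0.0435% to 0.0602% in Alkali-burned and 0.0138% to 0.0309% in Control libraries. Markers of lacrimal or meibomian gland (5 genes, Ltf at 0) took at most 0.0579% of reads in any library.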
